A study of Mus musculus with 4 samples.

Results

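*Pomc* nuclei of the mouse hypothalamic arcuate nucleus (ARC) were described here in single-nucleus RNA counts, with the transcript count of *Pomc* itself as the rule of choice. A barcode was a member if it held 5 or more unique molecular identifiers (UMIs, each a single captured transcript) of *Pomc*, if these made up 0.2% or more of its UMIs, and if it held fewer than 5 UMIs of *Agrp*. Of the 39176 barcodes that passed the limits on quality, 484 (1.24%) were *Pomc* nuclei, and they made up 1.60% of the 30288 neurons. The other 29804 neurons, chosen by 2 or more UMIs of *Snap25* plus *Syt1*, were the comparison within each library. Because *Pomc*, *Agrp*, *Snap25* and *Syt1* chose the nuclei, their levels are given as a description only.

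*Pomc* (chr12:3954951-3960642, GRCm38, plus strand) encodes pro-opiomelanocortin, a precursor that convertases cut into melanocyte-stimulating hormones, adrenocorticotropic hormone and beta-endorphin. In the ARC, neurons that release these peptides restrain feeding through melanocortin receptors on their target cells and take part in the control of sympathetic outflow. They respond to leptin and other hormones of energy balance, and neighboring AgRP neurons oppose them by releasing an antagonist of the same receptors.

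The nuclei came from ARC punches of wildtype male C57BL/6J mice, 10 weeks of age at collection. DOCA-salt mice had received deoxycorticosterone acetate, a mineralocorticoid, with a saline drink for 3 weeks, and Sham mice had undergone a sham treatment over the same 3 weeks. There were 2 libraries per treatment, each made from a pool of 2 mice, and the library was the unit of replication in every test. In all that follows, 4 values in a row belong to DOCA-salt 1, DOCA-salt 2, Sham 1 and Sham 2, in this order.

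Depth and makeup differed between the libraries. The deposited matrices held 45126915, 79437196, 53257230 and 59293582 UMIs in 10765, 19754, 2805 and 8325 barcodes, of which 10307, 18907, 2203 and 7759 were kept. DOCA-salt 2 stood apart from the other libraries in markers of the ARC. It had no nucleus with 5 or more *Agrp* UMIs making up 0.2% or more of its UMIs and fewer than 5 *Pomc* UMIs, while DOCA-salt 1, Sham 1 and Sham 2 had 287, 5 and 43 such nuclei. In its other neurons *Tbx3*, a transcription factor of the ARC, was at 2.44 CPM (UMIs of the gene over all UMIs of the summed nuclei, scaled to a fixed total), where the other libraries had 59.8, 23.8 and 48.4 CPM. *Pmch*, the peptide precursor of lateral hypothalamic neurons, was at 2877 CPM in the other neurons of DOCA-salt 2 and between 32.0 and 44.2 CPM elsewhere. Between 1 and 44 kept barcodes were shared by any pair of libraries, and none of them met the rule in more than 1 library.

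The 4 libraries gave 234, 20, 22 and 208 *Pomc* nuclei. As a share of neurons these were 3.13% (95% exact Clopper-Pearson interval 2.75 to 3.55), 0.136% (0.0833 to 0.211), 1.01% (0.636 to 1.53) and 3.48% (3.03 to 3.97). The intervals cover counting error only. The lowest share was in a DOCA-salt library and the highest in a Sham library, and the values of the treatments overlapped. The mean was 1.63% ± 2.12 (SD, n = 2) with DOCA-salt and 2.24% ± 1.74 (SD, n = 2) with Sham, a difference of -0.61 percentage points with p = 0.667 in an exact two-sided permutation test. With 2 libraries per group this test cannot give less than 0.333.

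**Figure D1:**
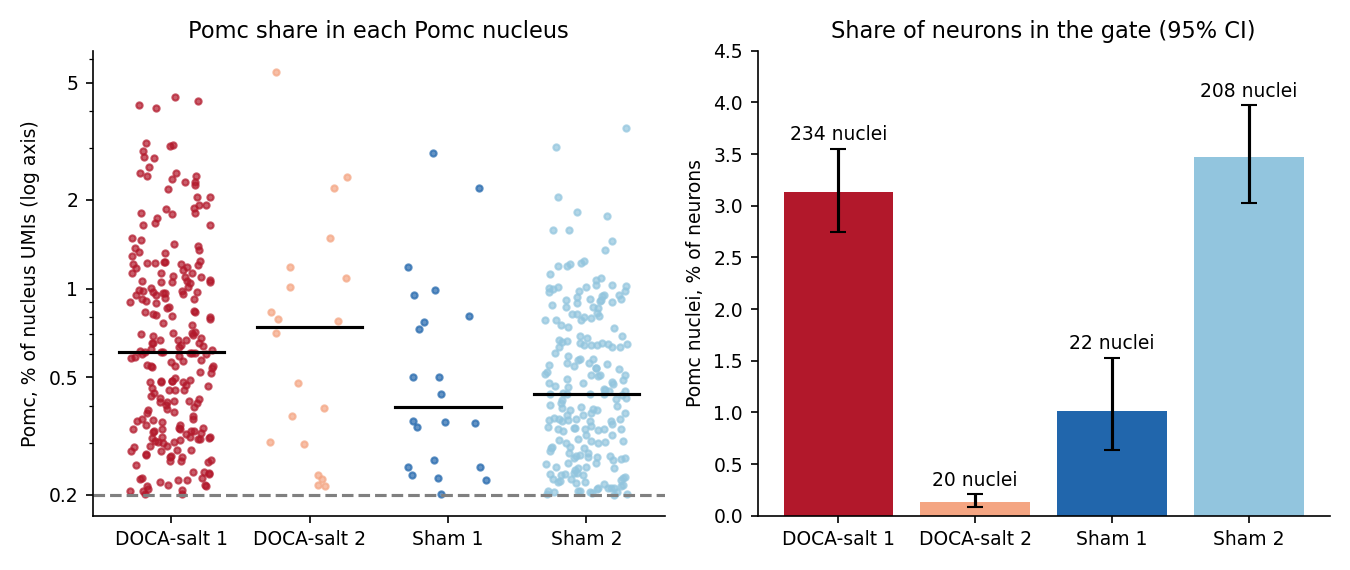
Left, *Pomc* as a percent of all UMIs of a nucleus (log axis) for each *Pomc* nucleus, with the library median as a black line and the 0.2% limit of the rule dashed. Right, *Pomc* nuclei as a percent of neurons in each library with 95% Clopper-Pearson intervals. DOCA-salt 1 and Sham 2 hold 234 and 208 of the 484 nuclei, and DOCA-salt 2 and Sham 1 hold 20 and 22.

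*Pomc* nuclei were slightly deeper than other neurons in every library. Their median was 3881, 3505, 9463.5 and 5191 UMIs, against 3309, 3132, 8342 and 4541 UMIs in other neurons. The median nucleus held 19.5, 23, 36.5 and 24 *Pomc* UMIs, or 0.609%, 0.743%, 0.397% and 0.439% of its UMIs, and single nuclei reached 569, 213, 513 and 141. Summed over nuclei, *Pomc* was at 8383, 10674, 7564 and 4936 CPM in *Pomc* nuclei. In other neurons it was at 108, 21.0, 85.3 and 136 CPM, and in oligodendrocyte-type nuclei (3 or more UMIs of *Mog*, *Mag* and *Mobp*, fewer than 2 of *Snap25* plus *Syt1*) at 55.0, 18.6, 0 and 123 CPM. A low *Pomc* count was thus present in cells that should lack the gene, and 69.6%, 44.1%, 51.5% and 55.7% of all *Pomc* UMIs of a library lay within its *Pomc* nuclei.

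The other 3 markers of the cell type were higher in *Pomc* nuclei than in other neurons of the same library in all 4 libraries. *Prdm12* (chr2:31640037-31655795), a zinc finger factor needed for *Pomc* expression in development, was at 34.2, 27.3, 39.9 and 36.9 CPM in *Pomc* nuclei and at 1.28, 5.46, 3.20 and 1.97 CPM in other neurons. The lowest *Pomc* value lay well above the highest value of other neurons, with a log2 fold change of 4.05 ± 0.26 (SE) and a false discovery rate (FDR) of 2.76e-51 in edgeR's quasi-likelihood test with the library as a block. *Tbx3* (chr5:119670669-119684724), a T-box factor that maintains the identity of these neurons, was at 179, 99.9, 132 and 172 CPM against 59.8, 2.44, 23.8 and 48.4 CPM in other neurons (log2 fold change 1.88 ± 0.18, FDR = 1.76e-07). *Cartpt* (chr13:99898489-99901091), the precursor of the CART peptides, was at 2228, 1990, 2566 and 1496 CPM against 281, 383, 129 and 199 CPM. No library overlapped for any of these genes, but *Cartpt* missed the FDR limit of 0.05 in this fit, with a log2 fold change of 3.13 ± 0.42 and FDR = 0.0583. Over 14 alternative settings *Cartpt* was called in 5, and its FDR ranged from 1.17e-313 without robust estimation of the spread, an alternative chosen after seeing the data, to 0.317. By this test the label held for *Tbx3* and *Prdm12*, and for *Cartpt* by its levels alone.

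Around the limits of the rule the levels of these markers changed gradually. In the 137 nuclei just outside, with 5 or more *Pomc* UMIs that made up 0.1 to 0.2% of their UMIs, *Cartpt* was at 453 CPM, *Tbx3* at 121 CPM and *Prdm12* at 14.7 CPM. In the 109 nuclei just inside, between 0.2 and 0.3%, they were at 612, 103 and 15.8 CPM. In the 247 nuclei with 0.5% or more they were at 3248, 207 and 55.2 CPM. By number of UMIs, the 47 members with 5 or 6 *Pomc* UMIs held 929 CPM of *Cartpt*, and the 55 barcodes left out for holding 3 or 4 held 1084 CPM.

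Among the members the levels of some genes followed the *Pomc* share of the nucleus. *Cartpt* had a Spearman correlation with it of 0.65, 0.60, 0.72 and 0.36 over the 234, 20, 22 and 208 nuclei of the libraries, given as a description because nuclei share a library and their depth enters both values. *Vgf*, a granin-like precursor of the secretory granule named after its values were seen, had 0.43, 0.57, 0.45 and 0.40. Other genes of prohormone processing and granules had values of both signs. They were 0.01, -0.17, -0.10 and 0.09 for *Pcsk1*, -0.04, -0.16, 0.21 and -0.05 for *Pcsk1n*, and -0.07, 0.10, -0.27 and 0.23 for *Scg2*. *Prlr*, the prolactin receptor, had -0.19, 0.11, 0.06 and -0.13. *Vgf* was at 251 CPM in members of 0.2 to 0.3% and at 1014 CPM in those of 0.5% or more, *Asb4*, an ankyrin repeat and SOCS box protein, at 243 and 824 CPM, and *Serpina3n*, a serine protease inhibitor, at 90.0 and 421 CPM. *Prlr* was at 313 and 261 CPM in the same groups. Members near the limit were thus lower in several genes than those with most *Pomc*. *Prlr* did not share this order, and *Pcsk1*, *Pcsk1n* and *Scg2* did not follow the *Pomc* share in every library.

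**Figure D2:**
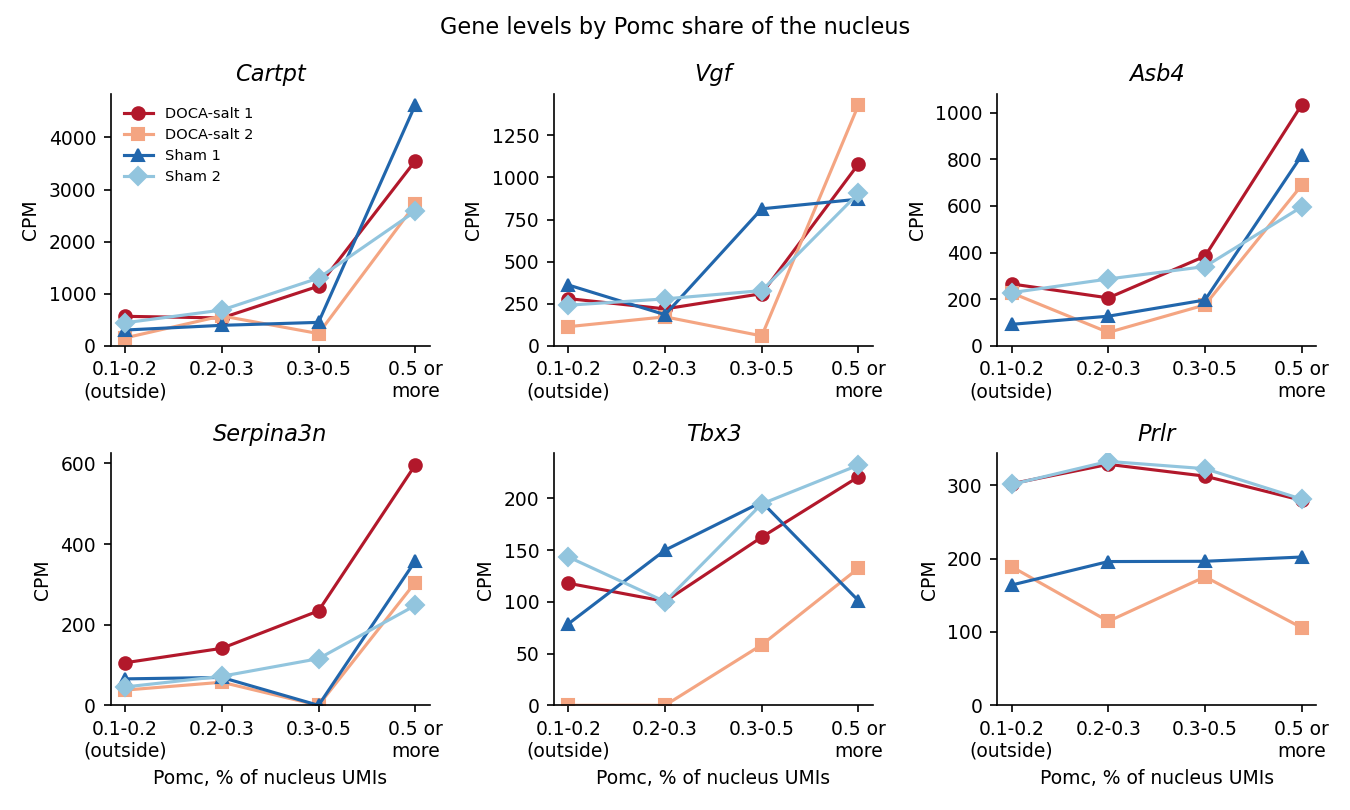
Summed level (CPM) of 6 genes in nuclei grouped by the percent of their UMIs that are *Pomc*, one line per library. The group of 0.1 to 0.2% lies outside the rule. *Cartpt*, *Vgf*, *Asb4* and *Serpina3n* are highest at 0.5% or more in every library, while *Prlr* has no such order.

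Across all genes, 490 of 14413 tested (3.4%) were higher in *Pomc* nuclei than in other neurons and 717 (4.97%) were lower, with a median log2 fold change of -0.03. Of these, 317 were higher and 511 lower in all 4 libraries. The other neurons were a mixture of neuron types that differed between libraries, as *Pmch* showed.

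Of 16 transcription factors known from the lineage of *Pomc* neurons, 7 were higher and 6 lower, with a list median of -0.41 against -0.03 for all genes. Beside *Prdm12* and *Tbx3*, *Nhlh2*, a factor that acts with leptin signals on convertase genes, was at 43.4, 9.08, 47.8 and 65.8 CPM against 15.6, 6.63, 11.6 and 15.04 CPM (log2 fold change 1.85 ± 0.18). It was higher in every library, by least in DOCA-salt 2. *Stat3*, the transcription factor that leptin activates, was at 209, 191, 223 and 137 CPM against 96.8, 60.5, 60.0 and 68.0 CPM (1.23 ± 0.10). *Isl1* and *Nkx2-1*, which switch on *Pomc* in the embryo, were higher by 0.76 ± 0.10 and 0.89 ± 0.14, and the nuclear receptor gene *Nr5a2* by 1.38 ± 0.24. *Otp*, a factor of AgRP neurons, was at 36.9, 18.2, 35.9 and 44.3 CPM against 72.3, 74.0, 61.2 and 63.8 CPM (-0.77 ± 0.15). Also lower were *Dlx1*, *Dlx5*, *Sox14* and *Pou3f2*, with log2 fold changes of -1.05, -1.67, -1.56 and -1.05. *Foxo1*, a factor that insulin removes from the nucleus, was at 25.9, 9.08, 11.96 and 37.7 CPM against 50.3, 21.1, 33.1 and 42.7 CPM (-0.58 ± 0.17).

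Most other neuropeptide genes were lower. Of 23 tested, 2 were higher and 14 lower, with a list median of -0.70. *Cartpt*, which belongs to this list, did not pass, as given above. Of the 2 that passed as higher, *Pdyn*, the precursor of dynorphins, had the larger fold change and was at 196, 54.5, 95.6 and 164 CPM against 63.0, 47.3, 34.4 and 54.2 CPM (1.54 ± 0.11). It was higher in each library, and by little in DOCA-salt 2. *Nucb2*, the precursor of nesfatin, was higher in the fit (0.50 ± 0.16), a call kept in 7 of 14 alternatives, but lower in DOCA-salt 2, with 9.08 against 22.8 CPM. *Tac1*, the precursor of substance P, was at 140, 36.3, 83.7 and 60.6 CPM against 486, 109, 216 and 94.9 CPM (-1.37 ± 0.11), and *Nts*, for neurotensin, at 4.62, 9.08, 43.8 and 31.0 CPM against 30.4, 31.9, 196 and 139 CPM (-2.23 ± 0.17). *Sst*, for somatostatin, was nearer to other neurons, with 302, 227, 91.7 and 229 CPM against 353, 298, 192 and 299 CPM (-0.39 ± 0.09). The fold changes of *Pmch* (-3.92 ± 0.20) and *Hcrt* (-2.58 ± 0.28), the peptides of lateral hypothalamic neurons, came with 182 and 99.9 CPM in the *Pomc* nuclei of DOCA-salt 2 against 2877 and 804 CPM in its other neurons. *Npy* was at 91.4, 0, 87.7 and 166 CPM against 215, 14.5, 127 and 210 CPM. These levels are a description, because *Npy* is made together with *Agrp* and the rule left out barcodes with 5 or more *Agrp* UMIs. With that limit lifted, and with *Agrp* nuclei taken out of the other neurons, *Npy* was at 140.3, 0, 138 and 307 CPM against 140.7, 14.5, 114 and 181 CPM, so that the Sham libraries had the opposite order.

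Of 16 genes for prohormone processing and dense core vesicles, 5 were higher and 1 lower, with a list median of 0.08. *Pcsk1*, the first convertase to cut pro-opiomelanocortin, was at 108, 27.3, 128 and 78.3 CPM against 49.7, 29.2, 32.8 and 38.8 CPM (1.16 ± 0.13). It was higher in 3 of 4 libraries and slightly lower in DOCA-salt 2. *Pcsk2* and *Cpe*, which finish the peptides, had log2 fold changes of -0.12 ± 0.09 and -0.17 ± 0.08 and did not pass the test. The granule genes *Syt4*, *Scg3*, *Chgb* and *Scg2* were higher by 0.51, 0.36, 0.24 and 0.22 and *Syt7*, a calcium sensor of slow release, lower at -1.29 ± 0.13. Of 14 alternatives *Chgb* was called in 8 and *Scg2* in 6, with an FDR of up to 0.780 and 0.808.

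Receptors for hormones and for NPY peptides were among the higher genes. Of 20 receptors for metabolic hormones and nutrients, 6 were higher and 2 lower, with a list median of 0.00. *Lepr* (chr4:101717404-101815352), the leptin receptor, was at 40.6, 18.2, 51.8 and 20.7 CPM in *Pomc* nuclei and at 11.4, 3.00, 6.26 and 7.08 CPM in other neurons (1.92 ± 0.23, FDR = 5.64e-15). *Pomc* nuclei were higher in every library. *Prlr* was at 299, 118, 199 and 313 CPM against 156, 68.3, 170 and 225 CPM (0.62 ± 0.09), *Pgr*, the progesterone receptor, was higher by 0.57 ± 0.12, and *Ghr*, *Acvr1c* and *Esr1* by 0.64, 0.59 and 0.53 with 1 or more libraries going the other way. *Cnr1*, the cannabinoid receptor, and *Thrb*, a thyroid hormone receptor, were lower at -0.81 ± 0.12 and -0.58 ± 0.14. *Insr*, the insulin receptor, had a log2 fold change of -0.03 ± 0.12. *Glp1r* had UMIs in only 3 *Pomc* nuclei and was not tested.

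Of 10 melanocortin, NPY and opioid receptors, 3 were higher and 1 lower, with a list median of 0.27. All 3 were receptors of NPY, the peptide of the opposing AgRP neurons. *Npy1r* (chr8:66697192-66706792) was at 201, 118, 151 and 172 CPM against 57.5, 14.3, 31.4 and 40.3 CPM (2.04 ± 0.11, FDR = 4.76e-74). Every *Pomc* value lay above every value of other neurons. *Npy5r* was at 43.4, 27.3, 19.9 and 31.0 CPM against 12.5, 7.41, 7.21 and 11.1 CPM (1.64 ± 0.21), and *Npy2r* at 49.9, 27.3, 59.8 and 55.4 CPM against 32.5, 12.1, 22.5 and 30.4 CPM (0.84 ± 0.16). *Oprk1*, the dynorphin receptor, was lower at -0.49 ± 0.15. *Mc3r* and *Mc4r*, the melanocortin receptors, had log2 fold changes of 0.73 ± 0.29 and -0.77 ± 0.53 and did not pass. None of the 15 monoamine and cholinergic receptors was higher and 7 were lower, with a list median of -1.02. *Htr2c*, a serotonin receptor, was at 31.4, 45.4, 19.9 and 32.5 CPM against 82.7, 78.6, 73.9 and 63.0 CPM (-1.20 ± 0.16), and *Htr1b* was lower at -1.76 ± 0.27.

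In the signalling chain below the leptin and insulin receptors, 5 of 17 genes were higher and 2 lower, with a list median of 0.16. *Irs4*, an insulin receptor substrate, was at 425, 200, 383 and 375 CPM against 189, 53.2, 162 and 187 CPM (1.15 ± 0.09). The feedback inhibitors *Socs2* and *Socs3* were higher by 1.49 ± 0.13 and 1.69 ± 0.31, and *Stat3* as above. *Mtor*, a nutrient-sensing kinase, and *Foxo1* were lower (-0.51 ± 0.17 for *Mtor*). *Mtor* was called in 7 of 14 alternatives and in none that left out a library, and *Foxo1* in 8, with an FDR of up to 0.790. *Asb4* was at 674, 509, 490 and 405 CPM against 129, 57.7, 51.1 and 125 CPM, higher in every library, yet like *Cartpt* it missed the limit (2.37 ± 0.35, FDR = 0.0704) and passed it in 6 of 14 alternatives, with an FDR between 3.17e-173 and 0.377.

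**Figure D3:**
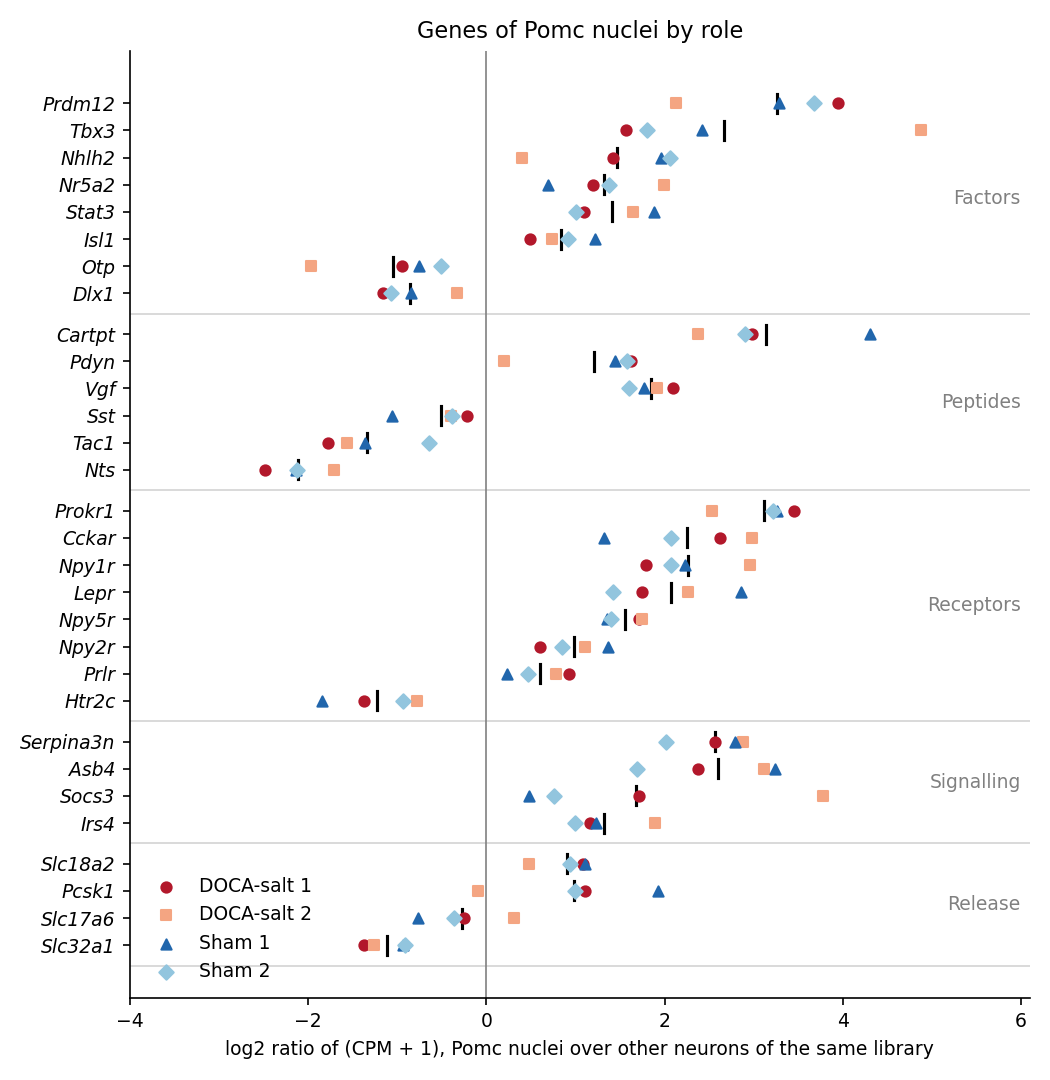
Log2 ratio of (CPM + 1) in *Pomc* nuclei over other neurons of the same library for 30 genes grouped by role. Each symbol is a library and the black bar the mean of the 4. *Npy1r*, *Lepr*, *Prokr1*, *Cckar* and *Serpina3n* lie to the right of 0 in every library, *Slc32a1* and *Htr2c* to the left, and *Cartpt* and *Tbx3* are to the right with a wide spread.

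Of 10 transmitter genes tested, 1 was higher and 3 lower, with a list median of -0.15. *Slc18a2*, the vesicular monoamine transporter, was at 175, 54.5, 87.7 and 90.9 CPM against 82.5, 38.8, 40.1 and 47.0 CPM (1.02 ± 0.12). *Slc32a1*, which loads GABA into vesicles, was at 61.0, 109, 91.7 and 79.1 CPM against 159, 263, 176 and 150 CPM (-1.12 ± 0.12), and no library overlapped. The GABA-synthesizing enzymes *Gad1* and *Gad2* had log2 fold changes of -0.06 ± 0.09 and -0.01 ± 0.08, and *Slc17a6*, which loads glutamate, was lower at -0.34 ± 0.10 with DOCA-salt 2 going the other way (218 against 176 CPM). Counting any UMI, 47.0%, 30%, 22.7% and 43.3% of *Pomc* nuclei held *Gad1* or *Gad2* without *Slc17a6*, 32.5%, 55%, 77.3% and 47.6% held both kinds, 5.13%, 5%, 0% and 2.88% held *Slc17a6* alone, and 15.4%, 10%, 0% and 6.25% held neither. The share with both was highest in the deepest library, Sham 1, as it was in other neurons (21.5%, 23.7%, 66.8% and 38.5%). After thinning each nucleus to 1000 UMIs, *Gad2* was found in 35.5%, 34.3% and 41.6% of the *Pomc* nuclei of DOCA-salt 1, DOCA-salt 2 and Sham 2 and in 16.9%, 24.3% and 22.8% of their oligodendrocyte-type nuclei, which should lack it. *Slc17a6* was found in 14.4%, 20.9% and 14.7% against 4.02%, 7.27% and 9.89%. UMIs of both genes were thus also found in nuclei that should lack them, and the part of such background in the share of nuclei with both was not tested.

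In channels that set excitability, 2 of 24 genes were higher and 4 lower. *Scn9a*, a sodium channel, was at 280, 154, 243 and 267 CPM against 143, 77.2, 109 and 167 CPM (0.87 ± 0.09), and *Kcnj3*, a G protein-gated potassium channel, was higher by 0.65 ± 0.14 with DOCA-salt 2 going the other way. The potassium channels *Kcnd2*, *Kcnq3* and *Kcnq5* were lower at -0.57, -0.54 and -1.07. *Kcnj11* and *Abcc8*, the parts of the ATP-sensitive potassium channel, had 0.04 ± 0.30 and -0.16 ± 0.31.

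For genes of the axes that DOCA-salt acts on, the counts below stand beside 8.37% of all genes tested that were called in either direction against other neurons. None of the 5 tested renin-angiotensin genes was called, and *Ren1*, *Agtr1b* and *Mas1* had no UMI in any *Pomc* nucleus, where 3 UMIs over all *Pomc* nuclei would be 1.07 CPM. *Agtr1a*, the angiotensin receptor, had 2.77, 0, 0 and 0.739 CPM in 4 nuclei. Of 12 corticosteroid receptors and targets, *Fkbp5* was higher (0.47 ± 0.15) and *Klf9* lower (-0.40 ± 0.12). *Fkbp5* was called in 6 of 14 alternatives, with an FDR of up to 0.485, and *Klf9* in 10, with an FDR of up to 0.855. The mineralocorticoid receptor *Nr3c2* was at 8.31, 18.2, 27.9 and 11.8 CPM against 18.03, 11.7, 21.0 and 16.2 CPM (-0.48 ± 0.27), and *Hsd11b2*, which protects it from glucocorticoids, had no UMI. Of 15 sodium and chloride transport genes, 2 were higher and 3 lower, and 2 of the lower ones were not called against other neurons of matched depth. Of 14 immediate early genes 2 were higher and 2 lower, with *Fos* at 18.5, 18.2, 43.8 and 22.9 CPM against 4.22, 13.5, 14.8 and 9.39 CPM (1.51 ± 0.25). Of 16 genes of the unfolded protein response, *Manf* (0.51 ± 0.11) and *Hspa5* (0.28 ± 0.08) were higher and none was lower.

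Genes known to divide *Pomc* neurons into subtypes went both ways, with 5 of 11 higher and 4 lower. *Ttr*, the thyroxine carrier, was at 36.0, 0, 15.9 and 12.6 CPM against 1.498, 1.01, 0.382 and 1.46 CPM (3.97 ± 0.31), with UMIs in 46 nuclei and none in DOCA-salt 2. *Anxa2*, an annexin, was at 12.9, 72.7, 23.9 and 13.3 CPM against 5.26, 2.64, 3.20 and 3.82 CPM (2.09 ± 0.31) in 39 nuclei, and was highest in DOCA-salt 2. *Lepr*, *Nr5a2* and *Npy2r* were higher and *Tac1*, *Htr2c*, *Sst* and *Pnoc* lower, with *Pnoc* at -0.59 ± 0.18.

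The 12 genes of largest positive fold change that were higher in every library held several receptors and secreted proteins. *Prokr1* (chr6:87578591-87590743), a prokineticin receptor, was at 31.4, 9.08, 15.9 and 26.6 CPM against 1.96, 0.745, 0.764 and 1.97 CPM. It passed the filter on low counts through *Pomc* nuclei and would not have passed through other neurons alone. The levels of *Prokr1* are therefore a description and no fold is given. *Cckar*, a cholecystokinin receptor, was at 22.2, 72.7, 19.9 and 38.4 CPM against 2.75, 8.35, 7.40 and 8.35 CPM (2.41 ± 0.23). *Serpina3n* was at 397, 218, 207 and 143 CPM against 66.1, 28.8, 29.1 and 34.7 CPM (2.46 ± 0.10). All *Pomc* values of these 3 genes lay above all values of other neurons. *Cd44*, a hyaluronan receptor, was higher by 3.08 ± 0.23 and *Plagl1*, an imprinted zinc finger gene, by 2.32 ± 0.09, with 409, 200, 347 and 324 CPM against 91.9, 38.7, 45.5 and 69.4 CPM. The remaining genes were rare: *Timp1*, *Atf3*, *Meltf*, *F2rl2*, *Dpys* and *Gm49169* were found in 15, 13, 20, 28, 15 and 6 nuclei, from 18, 16, 20, 30, 15 and 6 UMIs, and *Prdm12* completes the set. Whether these rare genes passed the filter on low counts through *Pomc* nuclei alone was not tested. They are therefore named as a description and no fold is given.

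The 12 genes with the lowest fitted values (*Tnnt2*, *Slfn5*, *Ces5a*, *Dnah6*, *Vamp5*, *Foxc1*, *Sertad3*, *Gm35842*, *Ccdc8*, *Tie1*, *Calhm2* and *Gm3164*) had no UMI in any *Pomc* nucleus, as had 14 of the 717 lower genes. They passed the filter on low counts through the other neurons alone, which fixed their direction, so they are named as a description and no fold is given. Of 14 alternatives, *Gm3164* was called in 2, *Calhm2* in 5, *Tie1* in 6, *Ccdc8* in 7 and the others in 8 or more.

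Most markers of other cells that passed the test were lower. Of 8 oligodendrocyte genes 0 were higher and 3 lower, of 8 astrocyte genes 0 and 2, of 6 precursor genes 0 and 2, of 8 microglial genes 0 and 1 and of 8 endothelial and mural genes 0 and 5. Of 7 tanycyte genes tested, *Vim* was higher (0.95 ± 0.18) and 3 lower. Several of these calls were lost against other neurons of matched depth, with DESeq2 and without the library block. They were those of *Mbp* and *Mobp* in oligodendrocytes, both astrocyte calls (*Aldoc* and *Slc1a3*), the microglial call (*Csf1r*), *Slco1a4* and *Vtn* of the vascular list and *Col23a1* of the tanycyte list. The 8 oligodendrocyte genes summed to 554, 1563, 2315 and 1924 CPM in *Pomc* nuclei, to 637, 1612, 2738 and 2483 CPM in other neurons and to 34510, 23499, 26942 and 29630 CPM in oligodendrocyte-type nuclei. The 8 astrocyte genes, led by *Aldoc*, summed to 947, 2026, 1072 and 1247 CPM in *Pomc* nuclei and to 1028, 1747, 1567 and 1439 CPM in other neurons. The 8 microglial genes summed to 115, 209, 183 and 85.7 CPM against 106, 106, 143 and 139.6 CPM, and the 8 endothelial and mural genes to 37.9, 236, 55.8 and 45.1 CPM against 79.8, 179.7, 194 and 133 CPM. The 9 tanycyte and ependymal genes summed to 108.1, 109.0, 95.6 and 107.9 CPM against 227.1, 46.7, 87.0 and 108.3 CPM. *Pomc* nuclei thus exceeded other neurons in the microglial sum in every library but Sham 2, and in the astrocyte and endothelial sums in DOCA-salt 2 alone. In the tanycyte and ependymal sum they were higher in DOCA-salt 2 and Sham 1 and lower in DOCA-salt 1 and Sham 2. The part of this in other results was not tested. Of 10 pituitary genes, which would mark the other site of *Pomc* expression nearby, only *Tbx19* had UMIs (at most 0.924 CPM summed over the list in any library), and 9 were at 0. Of 12 genes of neurons in neighboring regions 1 was higher (*Six6*, 1.23 ± 0.18) and 8 lower, led by *Pmch*, *Meis2*, *Hcrt* and *Adora2a*. Of 12 genes of AgRP neurons, 4 were higher (*Serpina3n*, *Fam159b*, *Npy2r* and *Acvr1c*) and 5 lower (*Htr1b*, *Npy*, *Lrp1b*, *Otp* and *Kcnip4*). The limit on *Agrp* UMIs bears on this list, so its counts are a description. With the limit lifted and *Agrp* nuclei taken out of the other neurons, *Htr1b*, *Lrp1b* and *Otp* were still lower in every library, with *Otp* at 56.1, 18.2, 38.4 and 54.0 CPM against 63.9, 74.0, 60.6 and 61.2 CPM. In the comparison with *Agrp* nuclei given below, however, *Lrp1b* was called higher in *Pomc* nuclei, and in 7 of 8 alternatives.

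Of the pan-neuronal genes, *Elavl4* and *Stmn2* were higher by 0.66 and 0.32 and *Rbfox3* and *Meg3* lower at -0.38 and -0.28. Other neurons were chosen on *Snap25* and *Syt1* and *Pomc* nuclei were not, and 100 of the 484 (62, 3, 0 and 35) held fewer than 2 UMIs of this pair. Another 22 barcodes met the *Pomc* limits but held 5 or more *Agrp* UMIs and were left out. No doublet caller was run. A set of 105 *Pomc* nuclei (30, 8, 6 and 61) held many glial UMIs (5 or more, at 0.2% or more of UMIs, of 1 glial or vascular list), and without them 1349 genes were called in place of 1207, of which 948 were shared. Of 9 genes that follow RNA quality 4 were lower, among them the hemoglobin genes *Hbb-bs* (-1.39 ± 0.15) and *Hba-a1* (-1.35 ± 0.18), and the part of RNA from outside the nucleus in these differences was not tested.

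The number of called genes rested on DOCA-salt 1 and Sham 2, which held most of the *Pomc* nuclei. It fell to 558 without DOCA-salt 1 and to 598 without Sham 2, and was 1245 without DOCA-salt 2 and 1050 without Sham 1. It fell to 380 with DESeq2 and to 117 without the library block, where *Tbx3* lost its call. *Prdm12*, *Npy1r*, *Lepr*, *Pdyn*, *Stat3*, *Cckar*, *Plagl1* and *Serpina3n* were called in all 14 alternatives. *Hspa5* and *Meg3* were called in 9, and *Esr1*, *Acvr1c*, *Slc17a6*, *Pnoc*, *Oprk1*, *Kcnq5* and *Rbfox3* in 10.

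To compare shares of nuclei, each nucleus was thinned to 1000 UMIs, which 208, 19, 22 and 199 *Pomc* nuclei had. *Cartpt* was then found in 63.7%, 48.8%, 53.1% and 57.3% of *Pomc* nuclei (85.9%, 70%, 77.3% and 80.8% without thinning), and in 15.3%, 10.8%, 11.5% and 13.4% of other neurons. Oligodendrocyte-type nuclei, whose median depth was 1036, 970.5, 2015.5 and 1665.5 UMIs, gave a background of 12.3%, 12.6% and 9.47% in DOCA-salt 1, DOCA-salt 2 and Sham 2, while Sham 1 had 6 nuclei of that type, too few for a share. The share in *Pomc* nuclei lay above this background in these 3 libraries, and that in other neurons lay below it in DOCA-salt 2 and within a few percentage points above it in the other two. *Npy1r* was found in 17.6%, 10.9%, 17.7% and 14.7% of *Pomc* nuclei (46.6%, 40%, 68.2% and 50.5% without thinning), with 5.57%, 1.38%, 3.05% and 3.59% in other neurons and 0%, 0% and 1.41% in the oligodendrocyte-type nuclei of DOCA-salt 1, DOCA-salt 2 and Sham 2. *Prlr* was found in 26.6%, 11.1%, 18.7% and 24.9% (60.3%, 45%, 77.3% and 66.8% without thinning), with 13.1%, 6.36%, 14.1% and 18.5% in other neurons and 6.18%, 3.597% and 7.77% in the oligodendrocyte-type nuclei of those 3 libraries. *Pdyn* was found in 17.5%, 7.203%, 6.28% and 16.1% (45.3%, 20%, 40.9% and 49.5%), with 5.58%, 3.99%, 3.15% and 4.53% in other neurons and 4.01%, 1.92% and 3.75% in oligodendrocyte-type nuclei. *Lepr* was found in 3.74%, 1.14%, 3.34% and 1.81% (13.7%, 10%, 27.3% and 11.5%), with 1.03%, 0.257%, 0.625% and 0.622% in other neurons and 0%, 0.107% and 0.725% in oligodendrocyte-type nuclei, levels close to what 1 UMI per nucleus allows. *Npy* was found in 6.04%, 0%, 7.45% and 13.5% of *Pomc* nuclei and in 7.46%, 1.67% and 9.87% of oligodendrocyte-type nuclei of DOCA-salt 1, DOCA-salt 2 and Sham 2, so in DOCA-salt 1 and DOCA-salt 2 its share was at background.

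**Figure D4:**
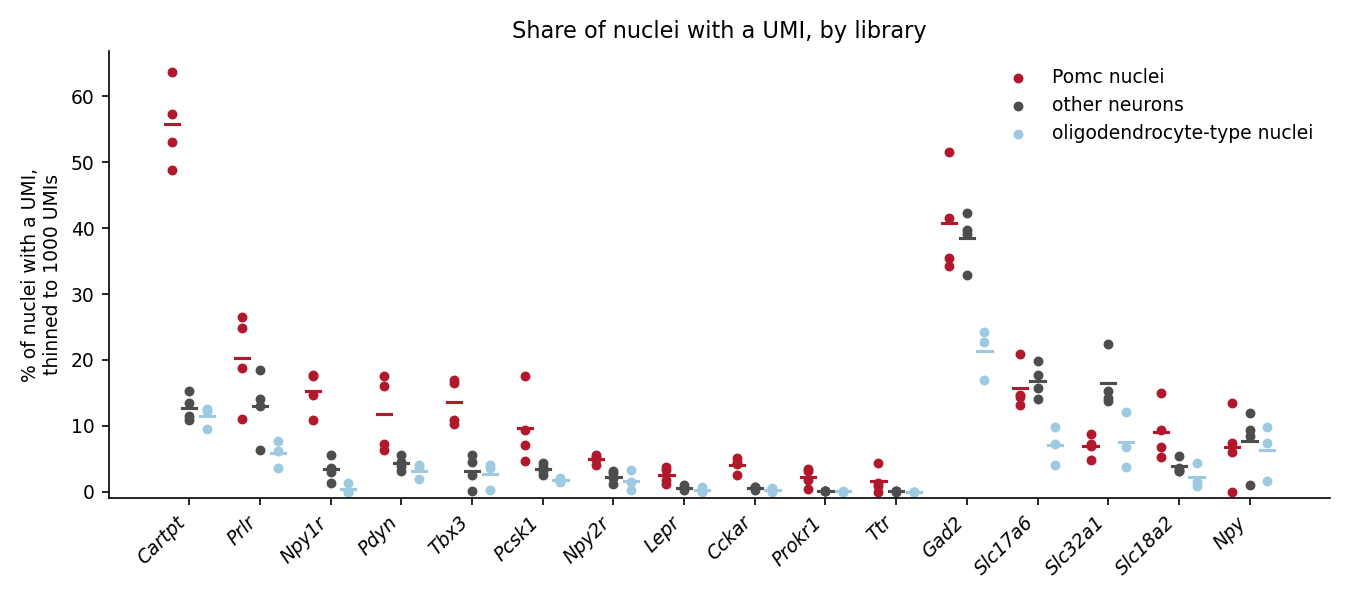
Percent of nuclei with 1 or more UMIs of 16 genes after thinning each nucleus to 1000 UMIs. Each point is a library and the bar the mean, for *Pomc* nuclei, other neurons and oligodendrocyte-type nuclei (the last without Sham 1, which had 6). *Cartpt* and *Npy1r* are higher in *Pomc* nuclei than in the other classes in every library plotted, *Slc32a1* is lower than in other neurons, and *Npy* overlaps between classes.

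Leptin receptor and CART transcripts were found in the same nuclei. Among nuclei of 1000 UMIs or more, 30, 2, 6 and 24 held UMIs of both *Lepr* and *Cartpt*, and 2, 0, 0 and 0 held *Lepr* without *Cartpt*. Since *Cartpt* was found in most members, this is given as counts only.

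*Agrp* nuclei, the neighbors of opposite role (335 nuclei chosen by 5 or more *Agrp* UMIs, 0.2% or more of UMIs and fewer than 5 of *Pomc*), could be compared in DOCA-salt 1 and Sham 2 only, which had 10 or more nuclei of both kinds. Values in this and the next paragraph follow that order, and the fit had 1 residual degree of freedom. Of 10467 genes tested, 372 (3.55%) were higher in *Pomc* nuclei and 307 (2.93%) lower, and DESeq2 called 59 in all. *Cartpt* was at 2228 and 1496 CPM in *Pomc* nuclei and at 175 and 173 CPM in *Agrp* nuclei (3.56 ± 0.10). *Pdyn* (3.06 ± 0.24), *Slc18a2* (3.32 ± 0.28), *Npy1r* (2.59 ± 0.22), *Prlr* (2.40 ± 0.17), *Nhlh2* (2.58 ± 0.41) and *Esr1* (1.69 ± 0.39) were higher too. *Prdm12* was at 34.2 and 36.9 CPM and *Oxtr*, the oxytocin receptor, at 16.6 and 13.3 CPM, and neither had a UMI in *Agrp* nuclei. Both passed the filter on low counts through *Pomc* nuclei alone, which fixed their direction, so their levels are a description. *Fn1*, *Ndst3*, *Slc25a24*, *Cd44*, *Cckar*, *Prokr1* and *Syndig1* were also among the genes of largest positive fold change. Whether they passed the filter through *Pomc* nuclei alone was not tested, so no fold is given. *Avp*, the precursor of vasopressin, was at 1.85 and 554 CPM against 0 and 31.9 CPM, so its level came from Sham 2.

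*Npy*, *Ghsr* and *Otp* were among the genes lower than in *Agrp* nuclei. *Npy* was at 91.4 and 166 CPM against 3473 and 4617 CPM. These levels of *Npy* are a description, because it is made together with *Agrp*, which chose the classes. *Otp* was at 36.9 and 44.3 CPM against 410 and 452 CPM (-3.37 ± 0.16). *Ghsr*, the ghrelin receptor, was at 3.69 and 3.69 CPM against 47.0 and 36.5 CPM, and *Agtr1a* at 2.77 and 0.739 CPM against 17.0 and 27.4 CPM. *Crhr1*, a receptor of corticotropin-releasing hormone, *Corin*, *Tgfbi*, *Alkal2*, *Olfr920*, *Tnfaip8l3*, *Gm10714* and *2310001H17Rik* were also lower. Over all libraries *Ghsr*, *Agtr1a* and *Crhr1* held 10, 4 and 9 UMIs in *Pomc* nuclei, and the genes from *Corin* on held 7, 5, 4, 4, 7, 8 and 1. These rare genes passed the filter on low counts through *Agrp* nuclei alone, which fixed their direction. They are therefore named as a description and no fold is given. *Acvr1c*, *Ghr*, *Calcr* and *Npy2r* were lower at -2.04, -1.70, -2.58 and -1.79, although *Acvr1c*, *Ghr* and *Npy2r* had been higher than in other neurons. *Serpina3n* and *Irs4*, also higher than in other neurons, were called lower than in *Agrp* nuclei too. These calls were kept in 3 of 8 alternatives for *Serpina3n* and in 7 of 8 for *Irs4*. For the vesicular transporters, *Slc17a6* was higher (1.68 ± 0.20) and *Slc32a1* lower (-1.05 ± 0.19). *Tbx3* and *Lepr* had log2 fold changes of 0.20 ± 0.15 and -0.36 ± 0.31 and did not pass. The glial genes *Gja1* (0.91 ± 0.29) and *Agt* (1.48 ± 0.19) were also higher in *Pomc* nuclei, and without the nuclei with many glial UMIs *Gja1* was at -0.25 on the log2 scale and *Agt* was not called (0.075, FDR = 0.927). Of 5 oligodendrocyte genes tested 3 were higher, among them *Mbp* and *Mobp*, and of 9 genes that follow RNA quality 5 were higher (*mt-Cytb*, *mt-Co1*, *mt-Nd1*, *Malat1* and *Bc1*), with a list median of 0.27 against 0.00 for all genes. Without the nuclei with many glial UMIs none of these 5 was called, and *Mbp* and *Mobp* were at -0.046 and -0.033. The part of glial RNA and of RNA quality in this comparison was not tested.

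The study asked what DOCA-salt changes in cells of the ARC. In *Pomc* nuclei, 12 of 9395 genes tested (0.128%) differed between DOCA-salt and Sham, 1 higher and 11 lower, where 524 had an unadjusted p below 0.05. *Pomc* itself was at 8383 and 10674 CPM with DOCA-salt and at 7564 and 4936 CPM with Sham, which is a description because the rule sets a lower limit on it. *Slc24a5* (chr2:125068124-125088677), a potassium-dependent sodium-calcium exchanger, was the gene that was higher, at 85.9 and 54.5 CPM with DOCA-salt and at 23.9 and 28.8 CPM with Sham (log2 fold change 1.497 ± 0.33, FDR = 0.0414). *Bc1*, a small non-coding RNA of neurons, was at 165 and 354 CPM with DOCA-salt and at 1706 and 2713 CPM with Sham (-3.31 ± 0.34, FDR = 4.57e-08). The libraries of the treatments did not overlap for either gene.

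The other 10 lower genes were *Nts*, *Mog*, *Zic1*, *Gjc3*, *Trf*, *S100b* (-1.94), *mt-Atp8* (-1.63), *Car2* (-1.60), *Mal* (-1.54) and *Map7d2* (-1.48). *Mog* and *Nts* passed the filter on low counts through the Sham libraries alone, which fixed their direction, so their levels are a description. Whether *Zic1*, *Gjc3* and *Trf* did so was not tested, and no fold is given for any of these genes. *Mog*, *Gjc3*, *Trf*, *Car2* and *Mal* are known from oligodendrocytes, and *mt-Atp8* is a mitochondrial transcript. *Mog* was at 4.62 and 9.08 CPM with DOCA-salt and at 35.9 and 31.8 CPM with Sham. Other neurons of the same libraries held 7.58 and 24.7 CPM and 34.96 and 31.7 CPM. For 11 of the 12 genes the DOCA-salt and Sham values of other neurons were also apart and in the same direction. The exception was *Zic1*, which in other neurons was at 18.4 and 125 CPM with DOCA-salt and at 87.2 and 86.4 CPM with Sham. The 8 oligodendrocyte genes as a whole summed to 554 and 1563 CPM with DOCA-salt and to 2315 and 1924 CPM with Sham in *Pomc* nuclei, and moved alike in other neurons. The 7 of them that were tested had a median log2 fold change of -1.32, the 9 RNA quality genes one of -1.08, and all genes one of 0.00. The part of glial RNA and of RNA quality in these differences was not tested.

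**Figure D5:**
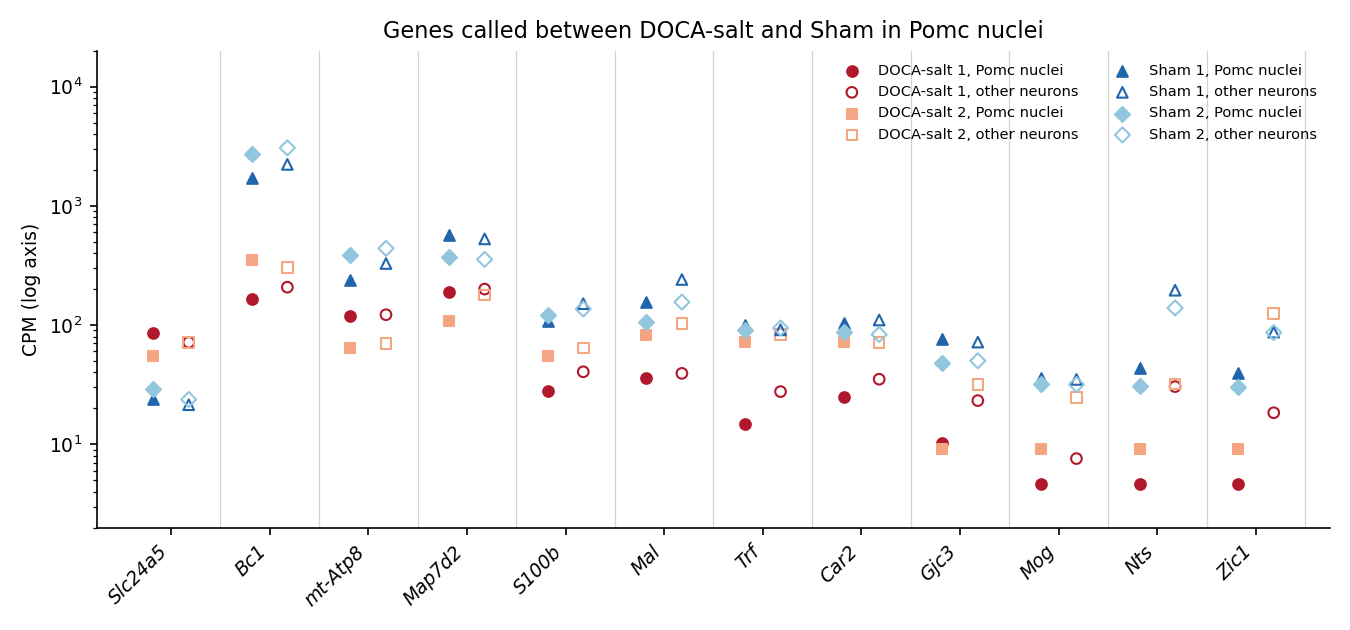
Level (CPM, log axis) of the 12 genes called between DOCA-salt and Sham in *Pomc* nuclei (filled symbols), with other neurons of the same library beside them (open symbols). *Slc24a5* is higher in both DOCA-salt libraries and the other 11 genes are lower. In other neurons the same order is seen except for *Zic1*.

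No other gene of the lists passed this test. *Prdm12*, *Tbx3* and *Cartpt* had log2 fold changes of -0.21 ± 0.38, -0.02 ± 0.28 and 0.05 ± 0.28. *Lepr* was at 40.6 and 18.2 CPM with DOCA-salt and at 51.8 and 20.7 CPM with Sham, from 44, 2, 13 and 28 UMIs. Its fitted log2 fold change of 0.41 ± 0.42, in which libraries with more UMIs count for more, had the opposite sign to the difference between the mean levels and did not pass. *Npy1r* had 0.09 ± 0.27 and *Pdyn* 0.16 ± 0.31. *Socs3* was at 26.8 and 45.4 CPM against 3.99 and 7.39 CPM (2.06 ± 0.57, FDR = 0.25) and *Serpina3n* at 397 and 218 CPM against 207 and 143 CPM (0.97 ± 0.29, FDR = 0.341). Both had DOCA-salt values above all Sham values without passing. Of the 10 corticosteroid genes tested, *Nr3c1* had -0.27 ± 0.27, *Fkbp5* 0.57 ± 0.33 and *Per1* 0.88 ± 0.36 (FDR = 0.768), and the list had a median log2 fold change of -0.46 against 0.00 for all genes. *Agt* had 0.59 ± 0.39.

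The calls between treatments changed with the library left out. Each such fit left 1 library in a treatment, which was assumed to vary like the 2 libraries of the other treatment. Without DOCA-salt 1, 168 genes were called and shared 3 with the 12, without DOCA-salt 2 there were 75, which held all 12, and without Sham 1 or Sham 2 there were 2 and 1. DESeq2 called 1 gene. *Bc1* was called in all 13 alternatives, *mt-Atp8* in 10, *Map7d2* and *S100b* in 9, *Slc24a5*, *Gjc3* and *Trf* in 7, and *Nts*, *Mog*, *Zic1*, *Car2* and *Mal* in 5. Without the nuclei with many glial UMIs *Nts*, *Zic1* and *Car2* were not called, and *Mog*, *Gjc3*, *Trf* and *Mal* did not reach the filter on low counts.

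Whether a treatment difference was larger or smaller in *Pomc* nuclei than in other neurons was tested by the interaction of treatment and class. Of 15128 genes, 9 passed (0.0595%), with 654 at an unadjusted p below 0.05, and none of the 12 genes above was among them. *Cd24a*, a surface glycoprotein, was at 56.3 and 72.7 CPM with DOCA-salt and at 15.9 and 33.3 CPM with Sham in *Pomc* nuclei. In other neurons it was at 8.65 and 11.8 CPM with DOCA-salt and at 14.2 and 19.1 CPM with Sham, so that the order of treatments was opposite (interaction 1.96 ± 0.33 on the log2 scale, FDR = 2.87e-05). *Gpr83*, a peptide receptor, was at 21.2 and 18.2 CPM against 67.7 and 45.8 CPM in *Pomc* nuclei, with an interaction of -1.70 ± 0.37. *Ctla2a* and *Hdc* rested on 28 and 36 UMIs, and 34 of those of *Hdc* were in 8 nuclei of DOCA-salt 1. *Inf2*, *Synpo*, *Camk4*, *Pde10a* and *Crym* had interactions of -2.13, -1.92, -1.17, -1.03 and -2.62. Without DOCA-salt 1 the interaction of *Crym* was 1.04 and that of *Hdc* -6.997, so that both changed sign. DESeq2 called none of the 15128 genes, with 78 at an unadjusted p below 0.05. Without DOCA-salt 1, which as above left 1 library in that treatment, 5 genes were called and 1 of them was shared, without Sham 1 there were 3 and without Sham 2 there were 2, and *Cd24a* and *Pde10a* were called in 10 of 13 alternatives, *Camk4*, *Inf2*, *Hdc* and *Gpr83* in 9, *Ctla2a* in 7 and *Synpo* and *Crym* in 5.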

How the data were processed

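Nuclei of ARC punches were sequenced with 3' droplet chemistry, and the deposited matrices hold raw UMI counts, which the authors obtained with Cell Ranger 3.0.1 on GRCm38. They were neither normalized nor filtered beyond the calling of barcodes. Whether intronic reads were counted is not given in the sources used here. Barcodes were kept with over 200 but under 7000 genes, under 25000 UMIs and under 15% of UMIs from mitochondrial genes. Members and gene lists were chosen with earlier results of these data known.

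UMI counts were summed per library and class and tested with edgeR 4.0.16 in R 4.3.3 (TMM, its filter of low counts, robust quasi-likelihood test, Benjamini-Hochberg FDR below 0.05 over all genes tested). The library was a block between classes. CPM were computed from the sums. Genes named were the called members of the lists and the 12 of largest change in each direction, or all where fewer were called. Some of the genes covered are not reported here. Alternatives were DESeq2 1.42.0, RLE size factors, no filter, other gates, matched depth and each library left out. In a test on simulated data, in which 200 genes were shifted by 2 on the log2 scale, the fits of *Pomc* nuclei against other neurons (14415 genes), DOCA-salt against Sham (9397), interaction (15130) and *Agrp* nuclei (10469) recovered 90.6%, 96%, 66.2% and 92.4% of the shifted genes that were tested (192, 200, 195 and 198), and called 5, 6, 4 and 10 genes that had not been shifted. The simulated counts had only the spread of the fitted trend, and the shifted genes had already passed the filter. Recovery of genes with outlying spread was therefore not tested. Positions of genes were read from GENCODE for GRCm38.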

Additional observations from a re-analysis of the deposited data

Results flagged for a closer look

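The treatment difference in *Pomc* nuclei was different from that in other neurons for 9 genes by the interaction test of edgeR. It was larger toward DOCA-salt by a log2 value of 1.96 for *Cd24a*, 3.66 for *Ctla2a* and 3.63 for *Hdc*. It was larger toward Sham, with -2.13 for *Inf2*, -1.70 for *Gpr83*, -1.03 for *Pde10a*, -1.17 for *Camk4*, -1.92 for *Synpo* and -2.62 for *Crym*. *Inf2* and *Synpo* had no UMI in the *Pomc* nuclei of DOCA-salt 2, and of the 58 *Pde10a* UMIs in Sham 1 a single nucleus held 14. Without DOCA-salt 1 *Hdc* was at -6.997 and *Crym* at 1.04, the opposite sign, and *Ctla2a*, *Synpo* and *Crym* were called in 7, 5 and 5 of 13 alternatives.

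Barcodes outside the comparisons also carried the *Pomc* signal. The limits on genes, UMIs and mitochondrial share removed 40 barcodes that met the *Pomc* rule (15, 1, 12 and 12). A further 22 kept barcodes (12, 0, 1 and 9) met the *Pomc* limits and held 5 or more *Agrp* UMIs, and together these had 1719 CPM of *Cartpt*, 1185 CPM of *Npy* and 899 CPM of *Agrp*.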

How the results depend on the processing

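The number of *Pomc* nuclei was 247 at a limit of 0.5% of UMIs, and between 250 and 464 with 1 library left out. Against other neurons, 380 genes were called with DESeq2 (192 higher, 188 lower), 117 without the library block (81 and 36), 385 with a log2 fold change of 1 or more also required (153 and 232), and between 558 and 1245 with 1 library left out. Between treatments, DESeq2 called 1 gene, no filter of low counts 20, 10 or more *Pomc* UMIs 5, removal of nuclei with many glial UMIs 7, and edgeR without robust estimation, chosen after seeing the data, 7. With 1 library left out there were between 1 and 168. For the interaction DESeq2 called 0, and leaving out 1 library gave between 2 and 11. Against *Agrp* nuclei DESeq2 called 59 genes, and 435 were called without nuclei with many glial UMIs. Leaving out a library was not run for that comparison, because 1 library would remain. Requiring 2 or more neuronal UMIs, also chosen after seeing the data, kept each count within 1.5 times.

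With the pool number as a replicate block, 11 genes were called between treatments, all lower, of which 6 were among the 12. The deviations of same-numbered libraries had a correlation of -0.06 over 9397 genes, so the numbers were not taken as a pairing.

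Directions reversed for *Gja1* (-0.25), *Mbp* (-0.046) and *Mobp* (-0.033) against *Agrp* nuclei without nuclei with many glial UMIs. Without DOCA-salt 1 they reversed for 4 values, and over the libraries left out in turn the interaction of *Crym* ranged from -2.82 to 1.04 and that of *Hdc* from -6.997 to 11.43, and against other neurons *Crym* ranged from -2.11 to 0.44 and *Ppp1r1b* from -2.10 to 0.46. The causes were not tested. Of 2925 values for named genes, 2342 kept direction and call, 565 lost the call, 11 gained it and 7 reversed.

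Mean shares of *Pomc* nuclei with a UMI moved with depth. At 2000 UMIs and without thinning they were 68.0% and 78.5% for *Cartpt*, 5.30% and 15.6% for *Lepr*, 36.5% and 62.3% for *Prlr*, 20.5% and 38.9% for *Pdyn*, 29.5% and 56.3% for *Slc17a6* and 62.2% and 81.4% for *Gad2*.

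DOCA-salt 2 and Sham 1 gave 20 and 22 nuclei, so rare genes are limited by counting there. With 2 pools per treatment, treatment and pool cannot be told apart beyond this spread. UMIs in nuclei that should lack a gene set a floor under low levels.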
